A study of Leymus chinensis with 14 samples.

Results

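Thioredoxins, glutaredoxins, protein disulfide isomerases and nucleoredoxins of sheepgrass leaves are described here: 60 loci out of 29563 in the deposited transcript table. A locus was taken when at least 1 of its transcripts had a Swiss-Prot name containing thioredoxin, glutaredoxin, disulfide isomerase or nucleoredoxin, and names with peroxiredoxin or peroxidase were left out. By these words 62 loci were found, and 2 whose best hit was a fungal protein were dropped. The name search used no measured value. Abundance did decide, by the most abundant transcript with such a hit or name, which loci counted as fungal and which name a locus took. By name, 32 were thioredoxins or thioredoxin-like proteins, 12 glutaredoxins, 11 protein disulfide isomerases, 3 NTRC thioredoxin reductases and 2 nucleoredoxins. Compartments were assigned by a word in the name or, without one, by the family named. Thioredoxins H and C-numbered glutaredoxins were counted as cytosolic, and other disulfide isomerases as proteins of the endoplasmic reticulum (ER). By this rule 15 were plastid forms, 19 cytosolic, 9 ER, 1 mitochondrial and 16 unassigned. Some labels are uncertain: both glutaredoxin-C8 loci, counted as cytosolic, had a predicted membrane helix, and the ER locus g2274 had a listed domain of unknown function.

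Thioredoxins and glutaredoxins are small proteins that swap disulfide bonds for thiols in other proteins. Plastid thioredoxins receive electrons from photosynthesis through ferredoxin, or from NADPH through NTRC, and switch Calvin cycle enzymes on in the light. Cytosolic thioredoxins of the h type are reduced by NADPH-dependent reductases, glutaredoxins by glutathione, and protein disulfide isomerases form and rearrange disulfides in proteins that enter the secretory pathway.

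Leaves of sheepgrass (Leymus chinensis), a perennial steppe grass, were taken from plants 3 weeks old that had been raised on 1/2MS, a plant culture medium, and their RNA was sequenced in 14 libraries. Of these, 9 came from normal light, 3 each from a check (ck in the labels, read here as no added salt), a low-salt and a high-salt group; 5 came from low light, 3 from a check and 2 from a high-salt group. The labels state neither the salt concentration nor the light level, nor whether replicates were separate plants, so each p-value covers only the spread among these libraries, possibly a technical one.

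Each deposited value is an abundance per assembled transcript in a unit that the table does not name. Transcripts were summed to their loci, whose names begin with g, so a locus value is in deposited units, and the depth behind it is unknown. Library sums ranged from 470103 to 581648 units, and replicates of a group correlated at 0.846 to 0.953 across loci. Changes are differences of mean log2(value + 1), which understates changes of scarce transcripts. A change was called at an adjusted p under 0.05 from limma with Benjamini-Hochberg adjustment over all 20567 loci that passed the filter on low values, among them 56 of the 60 redoxin loci. Rubisco small chain loci, which mark leaf tissue, summed to 25336 to 37354 units in the normal-light check and to 7365 to 17247 across all other libraries. Other leaf markers differed. Chlorophyll a-b binding loci (26787 to 46609 units in that check) overlapped it in every other group. Photosystem I loci were below it only in the low-light check. Rubisco activase loci were below it only at low light, and oxygen-evolving enhancer loci in all groups but low salt. Epidermal lipid-transfer protein loci were above it with low salt and in the low-light check. Ketoacyl-CoA synthase loci, also taken as epidermal markers, overlapped it in every other group. The markers of dividing tissue differed too. Cyclin-B loci were above it with high salt at either light level. The proliferating cell nuclear antigen locus was above it in those groups and in the low-light check. Histone H4 loci were above it only with high salt at normal light, and the histone H3.2 locus overlapped it in every other group. No locus had the name of the Casparian strip protein that marks roots. Loci with a fungal best hit summed to 176 to 231 units in the normal-light check libraries, 425 to 576 with high salt and 351 to 1099 with low salt. They summed to 324 to 1356 in the low-light check and 1403 to 1955 with low light and high salt. With these loci left out of the fit, all 17 calls of redoxin loci given below were kept. The other values were not rescaled for this, so each change stayed the same and only its p-value could move. An effect of fungal RNA on the values was not tested.

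The median change of all tested loci was not 0: it was 0.29 for high salt at normal light, 0.35 for low light and 0.39 for both together, all against the normal-light check. Dividing each library by a median-of-ratios size factor brought these medians to 0.03, 0.04 and 0.04. Scaled values are therefore given beside the deposited ones where they change a call. The 3 comparisons share the normal-light check libraries, so their results are not independent of each other. In whole leaves, fewer cells of a type and less RNA per cell cannot be told apart.

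With high salt at normal light 4 of the 56 tested redoxin loci were called higher and none lower. Over all tested loci 3.94% were called, 2.98% higher and 0.963% lower. The 4 were a spliceosomal thioredoxin-like protein (YLS8), a TTL1 protein, the Clot protein and a protein disulfide isomerase. After scaling none of these was called and 1 locus, the plastid thioredoxin M3, was called lower, where 0.744% of all tested loci were higher and 2% lower. At low light without added salt 7 loci were called higher and 2 lower, where 14.9% of all tested loci were called, 10.7% higher and 4.27% lower. After scaling 3 were higher and 7 lower, with 3.53% and 7.05% of all tested loci. With low light and high salt together 3 were called higher and 1 lower, against 9.37% of all tested loci, 7.31% higher and 2.06% lower, and after scaling 1 was higher and 4 were lower, with 2.77% and 4.37% of all tested loci. These shares of the redoxin loci, 7.14%, 16.1% and 7.14%, lay near those of all tested loci, so the counts are no result about redoxins as a group.

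No redoxin locus was called with low salt (0.0681% of all tested loci were) or with high salt at low light (0.574%). None was called in the light by high salt interaction (0.209%), between low and normal light among high-salt plants (0.656%) or between high and low salt (0.0486%). In these 5 comparisons limma gave an unadjusted p under 0.05 to 7, 4, 9, 8 and 9 of the 56 loci. Those are 12.5%, 7.14%, 16.1%, 14.3% and 16.1% of the redoxin loci, and 12%, 8.27%, 14.5%, 10.4% and 10.8% of all tested loci had such a p. No other tool was run.

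**Figure D1:**
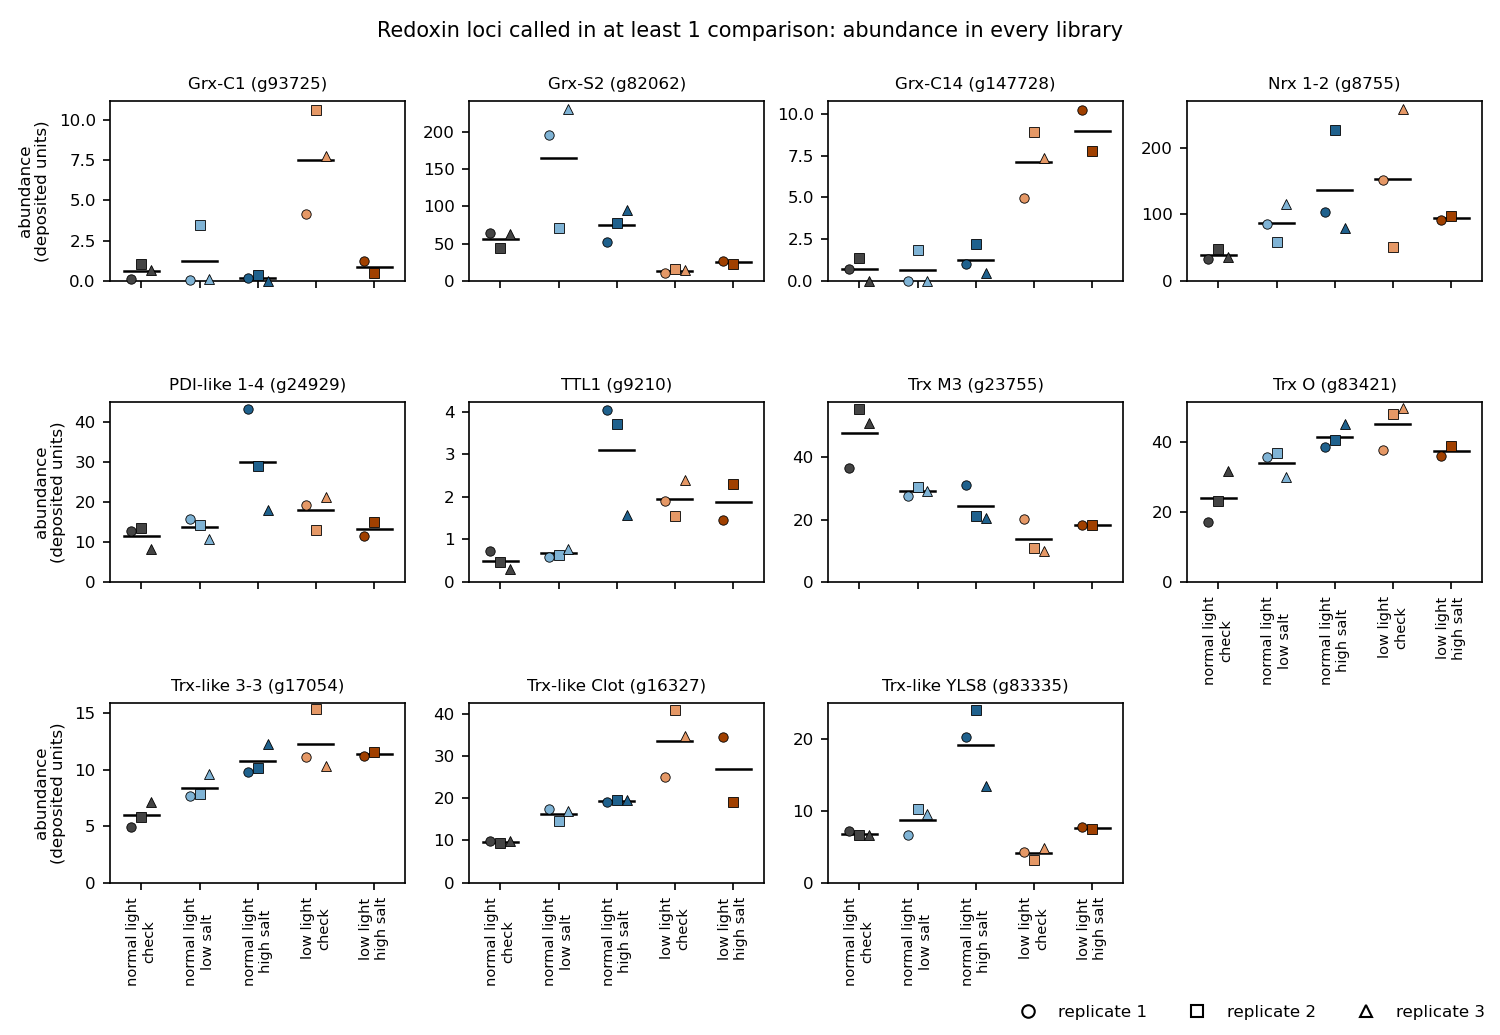
Abundance (deposited units, linear axis from 0) of the 11 redoxin loci called in at least 1 comparison, in each of the 14 libraries; circles, squares and triangles are replicates 1, 2 and 3, and the bar is the group mean. Thioredoxin M3 and glutaredoxin-S2 were lowest at low light, while both low-light groups of glutaredoxin-C14 (g147728) stood above all normal-light libraries.

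Thioredoxin M3 (g23755), a plastid thioredoxin that in Arabidopsis is needed for traffic through plasmodesmata and for the shoot meristem, was the plastid form that fell. It stood at 36.7, 55.5 and 51.1 units in the normal-light check and at 20.04, 10.8 and 10.02 in the low-light check. All low-light check libraries were below all normal-light check libraries. The fall was 1.78 on the log2 scale (SE 0.26, limma adjusted p = 0.00235), and it was called in every one of the 23 alternatives tried, with adjusted p from 0.00045 to 0.041. With high salt at normal light it stood at 31.3, 21.3 and 20.6 units, also below every check library. That difference of -0.95 was not called as deposited (SE 0.26, limma adjusted p = 0.065) and was called after scaling, at -1.33 (limma adjusted p = 0.019). With low salt it stood at 27.5, 30.6 and 29.2 units, again below every check library (log2 change -0.68, limma adjusted p = 0.33). With low light and high salt together the values were 18.4 and 18.2 units, a fall of 1.32 (SE 0.29, limma adjusted p = 0.020). That call was lost when check replicate 3 (adjusted p = 0.066) or either low-light high-salt library was left out (0.17 and 0.10). The interaction was 1.41 (SE 0.40), meaning that the fall with both treatments was that much smaller than the sum of the separate changes, and it was not called (limma adjusted p = 0.17, and 0.069 after scaling).

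The other plastid thioredoxins did not pass the test in any comparison as deposited. The M-type thioredoxin (g96287), of the group that acts on stromal enzymes, stood at 4.49, 6.52 and 5.74 units in the check and at 15.6, 12.3 and 12.6 with high salt. Those groups did not overlap, and the change of 1.15 (SE 0.32) missed the threshold (limma adjusted p = 0.068). HCF164, a thylakoid protein needed for assembly of the cytochrome b6f complex in Arabidopsis, was represented by 2 loci. One of these (g23390) stood at 26.4, 43.9 and 35.6 units in the check and at 14.99, 26.5 and 17.2 at low light, and the groups overlapped by 1 library. Its change of -0.83 (SE 0.35) was not called as deposited (limma adjusted p = 0.13) but was after scaling (-1.29, limma adjusted p = 0.030). The other (g17307) differed by -0.08 in the same comparison, and its groups overlapped. Thioredoxin-like 3-1 (g21883) stood at 33.5, 14.5 and 20.8 units in the check and at 44.6, 58.3 and 53.1 at low light, without overlap (log2 change 1.22, SE 0.40, limma adjusted p = 0.059). CITRX (g17468), a plastid thioredoxin first described as a partner of a tomato immune receptor, reached 76.4 units in low-light check replicate 2, against 12.4 and 31.3 in the other replicates. CDSP32 (g86374), a drought-induced plastid thioredoxin of potato, was listed at 0 in 6 libraries, reached 1.13 units in 1 and was not tested.

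NTRC joins an NADPH-dependent reductase and a thioredoxin domain in 1 chloroplast protein, which in Arabidopsis reduces 2-Cys peroxiredoxins. One of its 3 loci (g22156) stood at 69.5, 58.7 and 55.9 units in the normal-light check and at 41.0, 52.7 and 44.4 with high salt, and the groups did not overlap. It stood at 40.7 and 38.4 with low light and high salt together (log2 change -0.62, SE 0.23, limma adjusted p = 0.11, and -1.12 with 0.027 after scaling). The next (g8556) went from 49.9, 45.8 and 55.6 units to 35.1, 41.5 and 32.3 at low light, without overlap. Its change of -0.47 (SE 0.22) was called only after scaling (limma adjusted p = 0.175 as deposited and 0.037 scaled). The change of all 3 NTRC loci was below 0 with high salt, low salt and low light and in the combined comparison, and none of them was called as deposited. Their agreement may not be independent. The loci g22156 and g8556 had a best hit of the same name, a partial barley protein. A reductase domain was listed for g22156 and a thioredoxin domain for g8556, so they may be parts of the same transcript, which was not tested.

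Monothiol glutaredoxins carry a single active-site cysteine, and plastid forms include iron-sulfur cluster carriers. The S7 locus (g1389) stood at 171, 190 and 214 units in the check. With high salt it stood at 122, 126 and 124, and at low light at 110, 164 and 115. In both cases the groups did not overlap, with changes of -0.62 (limma adjusted p = 0.12) and -0.58 (0.098). After scaling the change at low light was called, at -1.05 (limma adjusted p = 0.018). Of its 40 transcripts only 4 carried the glutaredoxin name, and 3 disease resistance protein names were also present. The 4 gave 84.7% of the locus' abundance. In the low-light check the named transcripts stood at 47.7, 122 and 97.0 units, against 159, 176 and 199 in the normal-light check. S12 (g8437), a stromal glutaredoxin, stood at 120, 121 and 144 units in the check and at 77.0, 88.6 and 61.5 with high salt, without overlap (log2 change -0.77, SE 0.26, limma adjusted p = 0.11). At low light its values of 91.6, 196 and 106 overlapped the check.

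**Figure D2:**
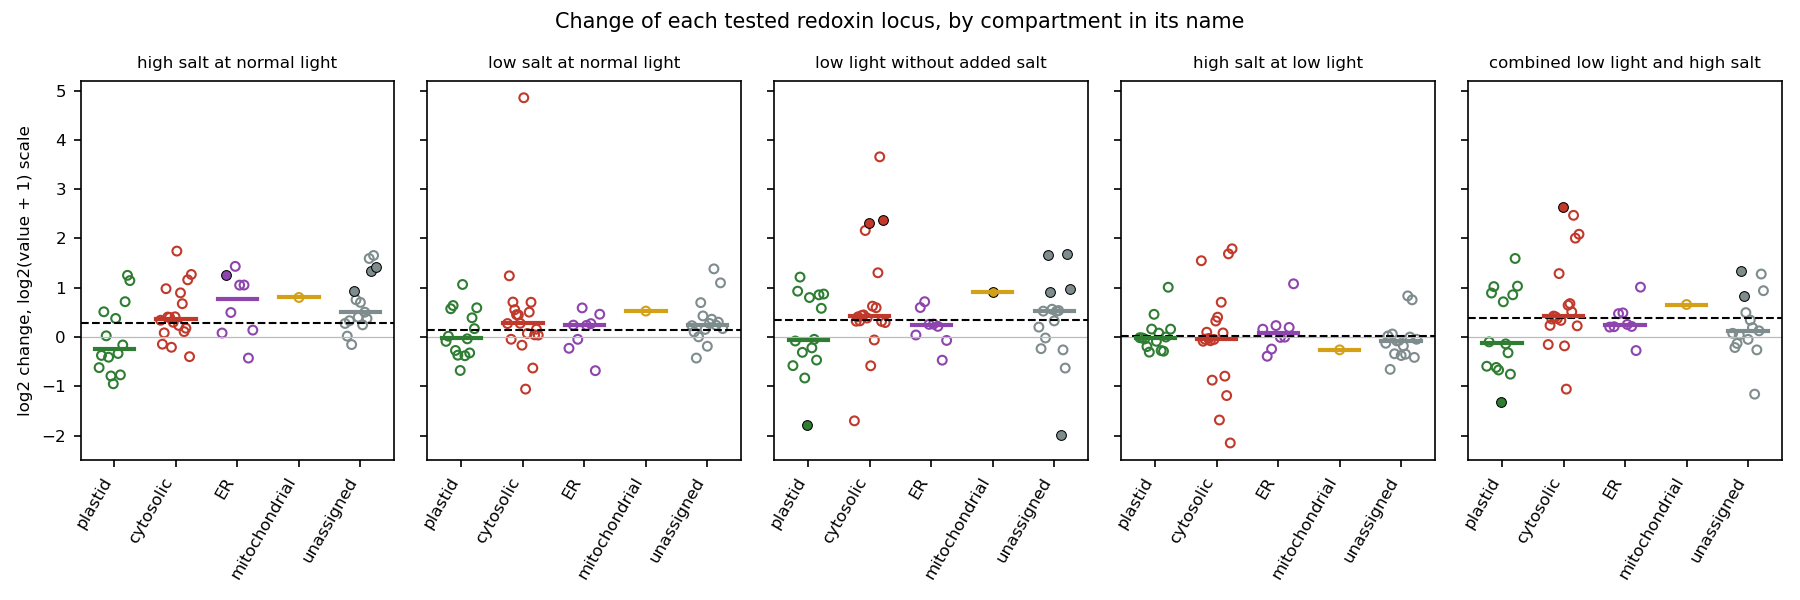
Log2 change, on the log2(value + 1) scale, of each of the 56 tested redoxin loci in 5 comparisons, by the compartment assigned from its name or family. Filled points were called, coloured bars are medians and the dashed line is the median of all 20567 tested loci. Plastid medians were -0.25, -0.06 and -0.12 for high salt, low light and both, where cytosolic medians were 0.37, 0.42 and 0.42. This split rests on where the NTRC loci are placed. With NTRC counted as cytosolic the plastid medians were 0.03, 0.58 and 0.72 and the cytosolic ones 0.30, 0.39 and 0.38.

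Plastid and cytosolic forms were compared as lists. The tested cytosolic loci are not independent of each other: the H-type loci g140050, g140708, g140709 and g146388 may share reads. In addition, 3 H2-2 loci were above 0 only in the libraries numbered 2. Among the plastid loci, the NTRC loci g22156 and g8556 may be parts of the same transcript. Each is counted as a separate locus in the counts and medians below. With high salt at normal light, 6 of 14 tested plastid loci and 15 of 18 cytosolic loci had a change above 0, against 14288 of 20567 loci. The plastid median was -0.25, which is 0.53 below that of all loci, and the cytosolic median 0.37, near the 0.29 of all loci. At low light the same counts were 6 of 14 and 15 of 18, against 14144 of 20567 loci, with medians of -0.06 and 0.42 where that of all loci was 0.35. With both treatments they were again 6 of 14 and 15 of 18, against 14486 of 20567, with medians of -0.12 and 0.42 where that of all loci was 0.39. After scaling the plastid medians were -0.62, -0.53 and -0.62 and the cytosolic ones 0.05, 0.18 and 0.08, where those of all loci were 0.03, 0.04 and 0.04. The plastid list held loci on both sides of 0, so its median moved with its members: with the 3 NTRC loci counted as cytosolic, since their names give no compartment, 6 of 11 plastid loci were above 0. The plastid medians were then 0.03, 0.58 and 0.72, and the cytosolic ones 0.30, 0.39 and 0.38. Neither list had a member called with high salt at normal light, where 3.94% of all tested loci were called. At low light only thioredoxin M3 was called among the 14 plastid loci, and it was lower. Of the 18 cytosolic loci 2 were called, both of them glutaredoxins that rose. Over all tested loci 4.27% were called lower there and 10.7% higher, so these few calls are no result about either list. With high salt at low light the medians of both lists lay close to 0, at -0.02 and -0.04.

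The 4 largest increases among redoxins at low light were in cytosolic glutaredoxins. Glutaredoxin-C14 (g147728) was scarce at normal light, with 0.704, 1.37 and 0 units in the check. It stood at 4.98, 8.93 and 7.37 units in the low-light check. All 3 low-light values were above the check, and the rise was 2.31 (SE 0.47, limma adjusted p = 0.0088). It was called under all 23 alternatives, with adjusted p from 0.0049 to 0.046. With low light and high salt together it stood at 10.2 and 7.76 units, a rise of 2.64 (SE 0.53, limma adjusted p = 0.013). This call was lost without either low-light high-salt library (adjusted p = 0.15 and 0.070) and with a pseudocount of 0.1 (0.065). Without low light it reached at most 2.18 units, with high salt. Glutaredoxin-C1 (g93725), a dithiol glutaredoxin, stood at 0.099, 1.05 and 0.681 units in the check and at 4.18, 10.6 and 7.77 in the low-light check, without overlap. The rise was 2.38 (SE 0.52, limma adjusted p = 0.0125), and it missed the threshold only when check replicate 1 was left out (adjusted p = 0.060, range 0.0037 to 0.060). With high salt at low light the same locus stood at 1.22 and 0.503 units, below all low-light check libraries. That change of -2.15 (SE 0.58) was not called (limma adjusted p = 0.20).

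A second C14 locus (g86626) had the largest increase at low light among redoxins, but its replicates were spread widely. It stood at 6.56, 6.65 and 2.17 units in the check and at 52.0, 66.0 and 102 at low light, without overlap. With low salt it stood at 0.503, 30.4 and 0.0515 and with high salt at 9.25, 24.97 and 0. The low-light change of 3.66 had an SE of 1.26 and was not called (limma adjusted p = 0.070), and neither was the change of 2.47 with both treatments (0.28). The median change of the 6 tested cytosolic glutaredoxins at low light was 2.24. A second C1 locus (g145757) stood at 0, 11.3 and 22.9 units in the low-light check, so its replicates did not move together. Both C8 loci (g23004 and g24497) overlapped between those groups.

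Thioredoxins of the h type were not called in any comparison. Thioredoxin H1 (g14021) stood at 65.0, 80.8 and 76.8 units in the check and at 163, 178 and 109 with high salt, without overlap (log2 change 0.98, SE 0.30, limma adjusted p = 0.080). The second H1 locus (g13246) was lower in low-light check replicates 1 and 2, at 5.20 and 9.12 units, than in replicate 3 at 39.0. In the check it stood at 61.8, 32.1 and 40.3. Its change of -1.70 (SE 0.61) was not called as deposited (limma adjusted p = 0.078) and was after scaling (-2.15, 0.049), where the groups overlap. With high salt at low light it had the largest increase among redoxins with a mean of at least 5 units, 1.55, with values of 33.8 and 44.4 (limma adjusted p = 0.565). The H-type loci g140050, g140708, g140709 and g146388 may not be separable: all had 96.3% identity to the same database entry, so reads may be shared between them. Their changes at low light were between 0.39 and 0.45.

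Thioredoxin H2-2 loci stood apart by how unevenly they were present. One of them (g14958, 45.0% identical to its database entry) had the largest increase of any tested redoxin in a single comparison. It stood at 0.117, 6.97 and 0.357 units in the check and at 72.1, 45.1 and 86.0 with low salt. The 3 low-salt libraries were above all 11 others, the next being high-salt replicate 2 at 27.0 units. The change of 4.85 had an SE of 1.11 and was not called (limma adjusted p = 0.13). At low light it did not exceed 3.11 units. Another (g83858) was listed at 0 in every library numbered 1 or 3 and stood above 0 in every library numbered 2. Its values in the replicate 2 libraries were 0.705 in the check, 6.40 with low salt, 1.14 with high salt, 24.7 at low light and 1.901 with both. The pair g88949 and g99372 showed the same split, and their values followed each other closely, at 10.3 and 13.1 units with high salt and at 15.2 and 17.1 with both treatments. These 3 loci were 43.75% identical to the same entry. Differences between groups at these loci therefore rest on 1 library each.

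**Figure D3:**
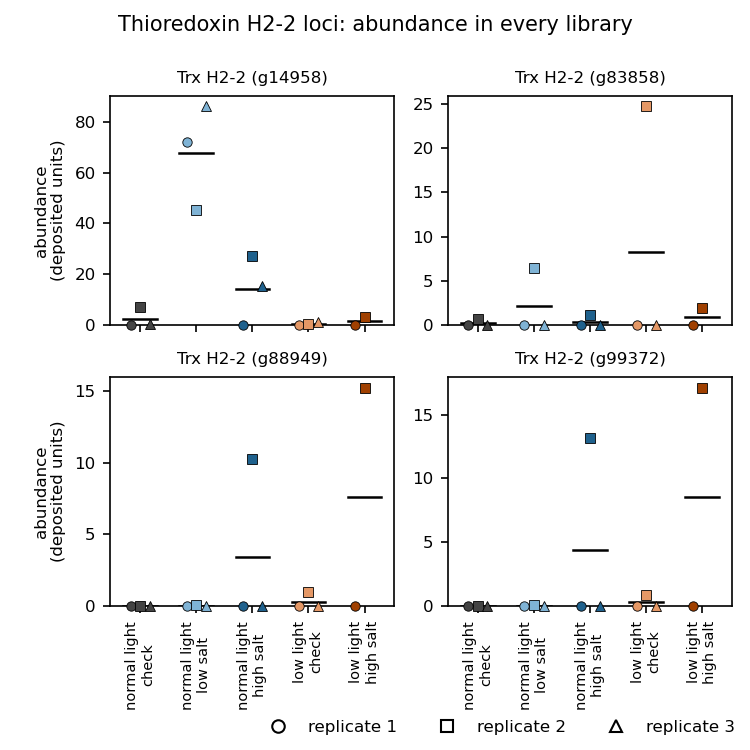
Abundance (deposited units, linear axis from 0) of 4 thioredoxin H2-2 loci in each library; circles, squares and triangles are replicates 1, 2 and 3 and the bar is the group mean. The locus g14958 was high in all low-salt libraries, and the other 3 were above 0 only in the squares.

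Thioredoxin O (g83421), the mitochondrial form, rose at low light. It stood at 17.2, 23.2 and 31.8 units in the check and at 38.0, 48.3 and 49.9 in the low-light check, without overlap. The rise was 0.92 (SE 0.21, limma adjusted p = 0.016), but it was 0.46 after scaling (0.22), and the call was also lost without check replicate 1 (0.071) and with only the 2 groups compared in the fit (0.10). With high salt it stood at 38.8, 40.6 and 45.4 units, above every check library (log2 change 0.80, SE 0.21, limma adjusted p = 0.058).

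Of the protein disulfide isomerases of the ER, 1 of 8 tested loci was called with high salt, and none after scaling. Over all tested loci 2.98% were called higher there, and 0.744% after scaling, and 1 call is no result about this list. The changes of 7 of the 8 isomerase loci were above 0, as were those of 14288 of all 20567 loci. Their median was 0.78, where that of all loci was 0.29, and 0.42 after scaling. The called locus was a 1-4 form (g24929), at 12.7, 13.4 and 8.25 units in the check and 43.3, 29.0 and 17.9 with high salt, without overlap. The rise was 1.26 (SE 0.32, limma adjusted p = 0.047). It was lost in 16 of 23 alternatives (adjusted p 0.019 to 0.16), among them leaving out any 1 library but high-salt replicate 3 and low-light check replicates 1 and 2, and named transcripts gave only 37.4% of the locus. Those transcripts went from 3.43, 5.47 and 3.82 units to 6.90, 6.08 and 7.48, a change of 0.59 that was not called (0.16). The other 12 transcripts of the locus went from 9.25, 7.92 and 4.43 units to 36.4, 22.9 and 10.4. The 2-3 form (g85430) stood at 14.2, 9.13 and 11.4 units in the check and at 24.4, 48.2 and 29.2 with high salt, without overlap (log2 change 1.43, SE 0.40, limma adjusted p = 0.065). The 2 other 2-3 loci (g92914 and g92915), which share their database entry and may share reads, differed by 1.05 and 1.06 (limma adjusted p = 0.089 each). In the combined comparison the change of g85430 was 0.49. Another 1-4 locus (g930) had the largest decrease with low salt among redoxins with a mean of at least 5 units, -0.68 (limma adjusted p = 0.485). It turned to 0.39 when only its named transcripts were summed. In plastids, pTAC5, named a disulfide isomerase and found in the plastid transcription complex, was represented by 2 loci, neither of them called. The first (g8896) stood at 12.9, 11.4 and 12.01 units in the check and at 13.3, 30.5 and 28.5 at low light (log2 change 0.86, SE 0.32, limma adjusted p = 0.091). The second (g24098) stood at 8.01, 10.9 and 11.6 units in the check, 25.5, 16.04 and 26.6 with low salt and 11.9, 30.8 and 16.5 at low light. Neither group overlapped the check (log2 changes 1.07 and 0.80, limma adjusted p = 0.24 and 0.12).

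TTL1, a thioredoxin with tetratricopeptide repeats that Arabidopsis needs for osmotic stress tolerance and abscisic acid responses, rose with high salt at the locus g9210. It was scarce, at 0.715, 0.455 and 0.288 units in the check, and stood at 4.04, 3.71 and 1.57 with high salt, without overlap. The rise was 1.41 (SE 0.30, limma adjusted p = 0.033, and 0.053 after scaling). The call was lost without check replicate 1, 2 or 3 (adjusted p = 0.097, 0.053 and 0.12) and without high-salt replicate 1 or 2 (0.11 and 0.083). Its low-salt values of 0.590, 0.630 and 0.776 overlapped the check. At low light it stood at 1.89, 1.54 and 2.40 units, above the check (log2 change 0.99, SE 0.30, limma adjusted p = 0.046). This call was lost in 16 of 22 alternatives, after scaling (0.14) and when any 1 library but high-salt replicates 1 and 3 was left out among them. The other TTL1 loci (g15100 and g19007) overlapped between check and high salt.

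YLS8 is a thioredoxin-like protein by fold, related to a yeast subunit of the spliceosome. The locus g83335 stood at 7.19, 6.70 and 6.65 units in the check and at 20.3, 24.01 and 13.5 with high salt, without overlap. It rose by 1.33 (SE 0.24, limma adjusted p = 0.022, and 0.053 after scaling). The call was lost without check replicate 1 or 3 (adjusted p = 0.089 each) and without high-salt replicate 1 or 2 (0.075 and 0.059). At low light it stood at 4.31, 3.19 and 4.86 units, below the check, a change of -0.63 that was called only after scaling (limma adjusted p = 0.10 as deposited, 0.019 scaled at -1.04). Another YLS8 locus (g15275) stood at 83.0, 141 and 142 units in the check and at 103, 125 and 93.8 with high salt, with overlap. The 3 YLS8 loci were each 95.07% identical to the same database entry.

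The Clot locus (g16327), a thioredoxin-like protein named for a fly eye-colour gene, rose in all 3 comparisons with calls. It stood at 9.81, 9.30 and 9.85 units in the check, 19.0, 19.6 and 19.5 with high salt and 25, 41.0 and 34.8 at low light. With both treatments it stood at 34.6 and 19.2 units. All of these were above the check, as were the low-salt libraries, where the change was not called. The rise at low light was 1.67 (SE 0.23, limma adjusted p = 0.0018) and was called under all 23 alternatives, with adjusted p from 0.0011 to 0.028. The rise with high salt was 0.94 (SE 0.23, limma adjusted p = 0.045) and was lost in 15 of 23, after scaling (0.20) and when any 1 check, low-salt or high-salt library at normal light, or low-light check replicate 3, was left out among them. With both treatments it was 1.33 (SE 0.26, limma adjusted p = 0.011, and 0.078 after scaling), and the call was lost without low-light high-salt replicate 1 (0.18). Named transcripts gave 39.0% of the locus, whose most abundant transcript had another name. They stood at 0.896, 0 and 0.895 units in the check and at 8.49, 28.0 and 19.7 at low light, a rise of 3.54 (limma adjusted p = 0.00239). With high salt the named transcripts stood at 4.71, 4.81 and 4.27 units (log2 change 1.87, limma adjusted p = 0.067).

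Monothiol glutaredoxin-S2 (g82062), whose name gives no compartment, fell at low light from 64.0, 43.6 and 62.7 units to 10.02, 15.9 and 14.7. All low-light check libraries were below all normal-light ones. The fall was 1.99 (SE 0.39, limma adjusted p = 0.0077), and it was called under all 23 alternatives (0.0025 to 0.038). With low salt the values were on the other side of the check, at 196, 71.1 and 231 units (log2 change 1.38, SE 0.39, limma adjusted p = 0.20). With both treatments they were 26.8 and 22.4 units, below the check (log2 change -1.16, SE 0.44, limma adjusted p = 0.11). The S6 locus (g21024) overlapped in all of these.

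**Figure D4:**
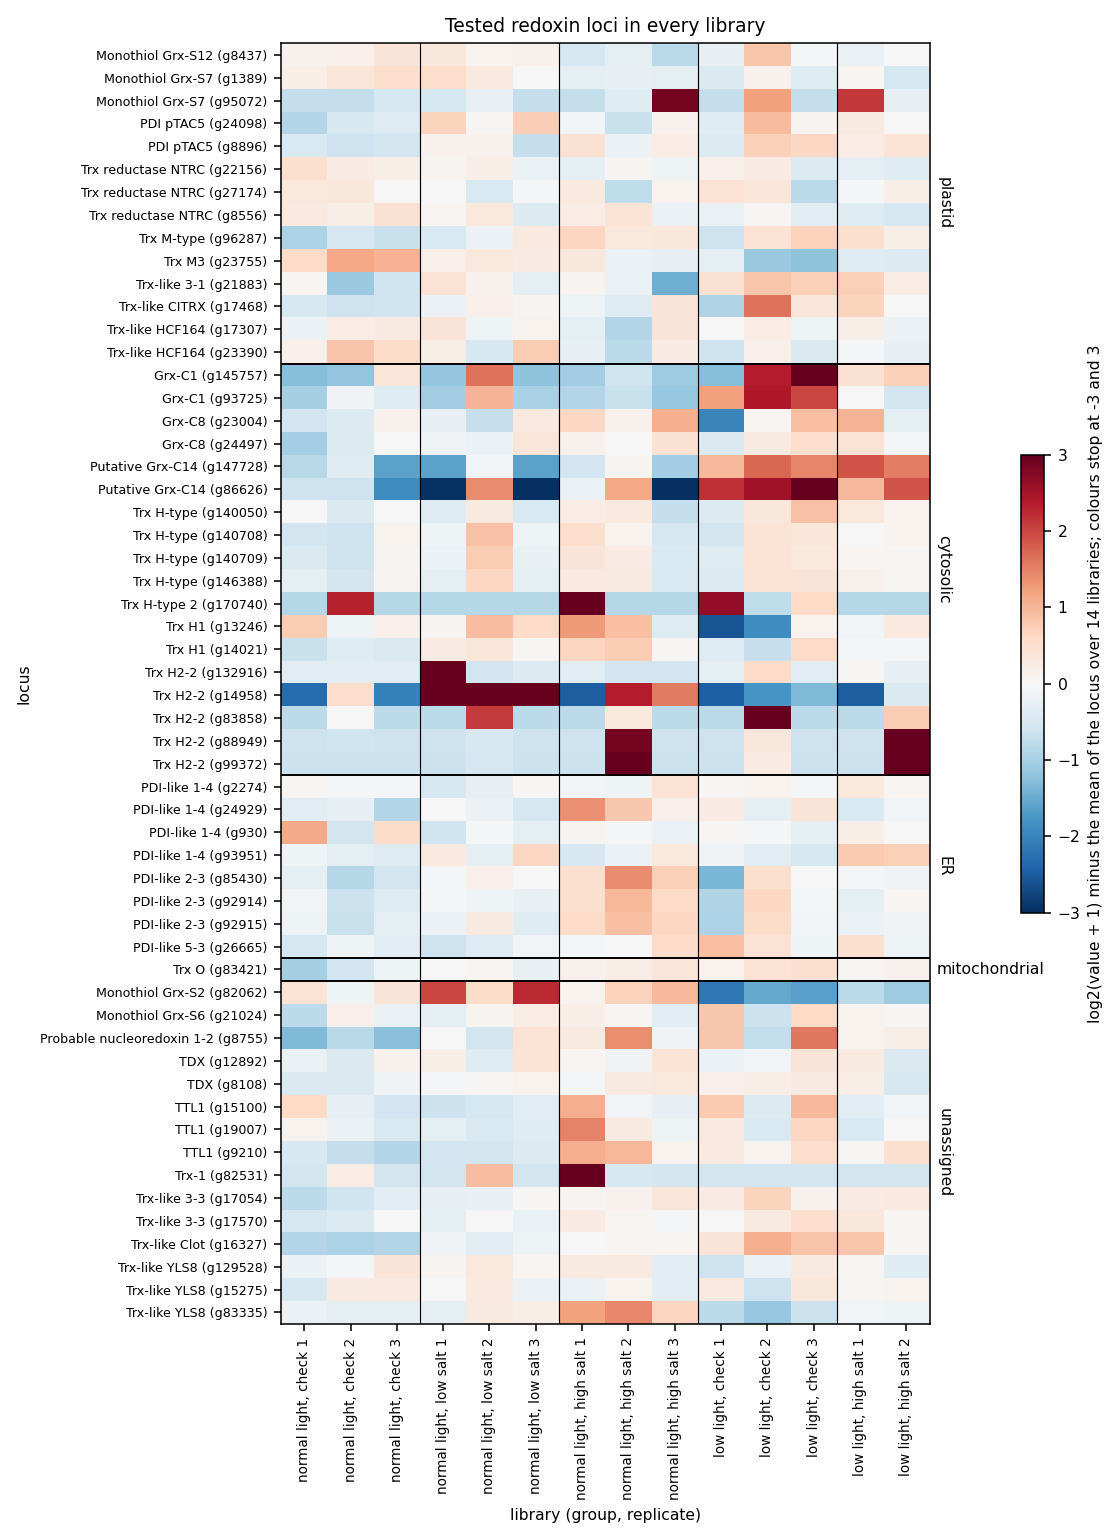
Each of the 56 tested redoxin loci (vertical axis, grouped by compartment) in each library (horizontal axis), as log2(value + 1) minus the mean of the locus over the 14 libraries; red is above that mean and blue below. In all 5 low-light libraries both C14 glutaredoxins lay above their mean, and glutaredoxin-S2 and thioredoxin M3 lay below theirs.

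Nucleoredoxin 1-2 (g8755), from a family of thioredoxin-related proteins that in Arabidopsis protects catalase, stood at 33.4, 48.0 and 35.4 units in the check. It stood at 151, 51.3 and 259 at low light and at 104, 227 and 79.5 with high salt. Both groups were above the check, but replicates differed several-fold. The low-light change of 1.69 (SE 0.52) was called at an adjusted p of 0.0496 by limma and lost in 15 of 23 alternatives (0.0092 to 0.17), among them leaving out any 1 library but high-salt replicates 2 and 3 and low-light check replicate 2. The high-salt change of 1.66 was not called (limma adjusted p = 0.092). Its interaction of -2.07 was the lowest among redoxins and not called (limma adjusted p = 0.27). The other nucleoredoxin (g142537) reached 0.308 units at most and was not tested.

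Thioredoxin-like 3-3 (g17054) changed by less but with little spread. It stood at 4.94, 5.85 and 7.18 units in the check, 11.1, 15.4 and 10.3 at low light and 11.3 and 11.6 with both treatments, and neither treated group overlapped the check. The rises were 0.92 (SE 0.21, limma adjusted p = 0.014) and 0.84 (SE 0.23, 0.044). After scaling they were 0.50 (0.15) and 0.38 (0.37), and without check replicate 1 the calls were lost (0.069 and 0.15). The first was also lost with only the 2 groups compared in the fit (0.084). The second was lost in 13 of 23 alternatives, among them leaving out any 1 library but low-salt replicate 3, high-salt replicate 3 and the low-light check libraries (highest without low-light high-salt replicate 1, at 0.25). The loci named for TDX, an Arabidopsis thioredoxin with tetratricopeptide repeats, were not called. Of these, g12892 had a tetratricopeptide repeat as its listed domain, was 37.45% identical to the TDX entry and had a FAM10 family protein as its other database hit. In g8108 no domain was listed, and transcripts with the TDX name gave 11.3% of the abundance, the main transcript being named for a FAM10 family protein.

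The enzymes on which plastid redoxins act, and those that feed or use them, were taken as a list of 49 loci, 42 of which were tested. With high salt 1 was called higher and 2 lower, at low light 2 higher and 7 lower, and with both 0 higher and 3 lower. Those are 7.14%, 21.4% and 7.14% of the list, where 3.94%, 14.9% and 9.37% of all tested loci were called. After scaling none was higher in any of the 3, and 7, 12 and 9 of the 42 tested were lower. Those are larger shares than the 2%, 7.05% and 4.37% of all tested loci that were lower, and no test of the list was run. Median changes were 0.02, -0.0041 and -0.08, where those of all loci were 0.29, 0.35 and 0.39. Phosphoribulokinase (g24751), a Calvin cycle enzyme activated by thioredoxin, stood at 2985, 3111 and 2768 units in the check and at 1546, 809 and 566 at low light. It fell there by 1.73 (SE 0.33, limma adjusted p = 0.0069, and 0.058 with only the 2 groups compared in the fit), and all low-light values were below the check. It fell by 1.34 with high salt (limma adjusted p = 0.047), a call lost when any 1 library but high-salt replicate 3 and low-light check replicates 1 and 3 was left out, and by 1.59 with both (limma adjusted p = 0.023, lost without check replicate 1 or 3 or either low-light high-salt library). The B subunit of chloroplast glyceraldehyde-3-phosphate dehydrogenase (g83929), the redox-regulated one, fell at low light from 141, 224 and 118 units to 55.3, 66.5 and 67.0 (log2 change -1.29, SE 0.27, limma adjusted p = 0.0093, and 0.057 with only the 2 groups compared in the fit). The other called locus of this subunit (g156205) fell from 61.5, 67.2 and 47.2 units to 21.8, 17.4 and 13.4 (log2 change -1.70, limma adjusted p = 0.030, lost when any 1 normal-light check library, or low-light check replicate 2 or 3, was left out). Chloroplast fructose-1,6-bisphosphatase (g82597), also activated by thioredoxin, fell at low light from 50.8, 62.3 and 61.6 units to 24.4, 33.8 and 21.1 (log2 change -1.13, limma adjusted p = 0.033, lost when any 1 normal-light check library, or low-light check replicate 1 or 3, was left out). The other chloroplast locus of that name (g15341) stood at 16.8, 19.9 and 19.0 units in the check and at 17.8, 27.3 and 13.3 at low light, with overlap (log2 change 0.013, limma adjusted p = 0.99).

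Leaf ferredoxin-NADP reductase (g18235), which draws electrons from ferredoxin to NADPH, stood at 475, 506 and 514 units in the check and at 234, 238 and 175 at low light. Its fall of 1.22 (SE 0.22, limma adjusted p = 0.0048) was called under all 23 alternatives. A second locus of the same name (g18572) fell by 0.88 there (limma adjusted p = 0.017, lost without check replicate 1 or low-light check replicate 3). With high salt g18235 stood at 232, 257 and 233 units, a fall of 1.05 (limma adjusted p = 0.030, lost when any 1 check library, or high-salt replicate 1 or 2, was left out). A locus of the embryo form of this enzyme (g16282) rose with high salt, from 1.77, 4.03 and 2.65 units to 10.9, 12.1 and 11.03 (log2 change 1.73, limma adjusted p = 0.041, and 0.061 after scaling). That call was lost when any 1 high-salt library at either light level, check replicate 1 or 3, or low-salt replicate 1 was left out. Another embryo-form locus (g18738) stood at 0.39, 1.76 and 1.56 units in the check and at 5.71, 5.31 and 2.10 with high salt, and was not called. The most abundant reductase locus (g18779), of leaf isozyme 2, was not called either. Sedoheptulose-1,7-bisphosphatase (g144004) fell with both treatments from 413, 244 and 270 units to 104 and 97.2 (log2 change -1.57, limma adjusted p = 0.033, lost without check replicate 1 or 3 or either low-light high-salt library), and the other 2 loci of that name were not called. The CCDA protein (g9786), which passes reducing power across the thylakoid membrane to HCF164, fell by 0.75 at low light (limma adjusted p = 0.048). That call was lost in 17 of 23 alternatives, among them leaving out any 1 library but check replicate 2, and the other 2 CCDA loci were not called. The plastid 2-Cys peroxiredoxin (g79784), the substrate of NTRC, was not called, at 198, 174 and 177 units in the check and 239, 311 and 391 at low light. Cytosolic glutathione reductase (g9713) and glutamate-cysteine ligase B (g81950), which supply glutathione to glutaredoxins, rose at low light by 0.65 and 0.68 (limma adjusted p = 0.048 and 0.035), and neither was called after scaling (0.63 and 0.48). The first of these calls was lost when any 1 library but high-salt replicates 1 and 3 was left out. The second was lost when any 1 check library, low-light check replicate 1 or 3 or either low-light high-salt library was left out. Another cytosolic glutathione reductase locus (g17186), the chloroplast one (g23385), glutamate-cysteine ligase A (g18965) and the glutathione synthetase loci were not called.

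**Figure D5:**
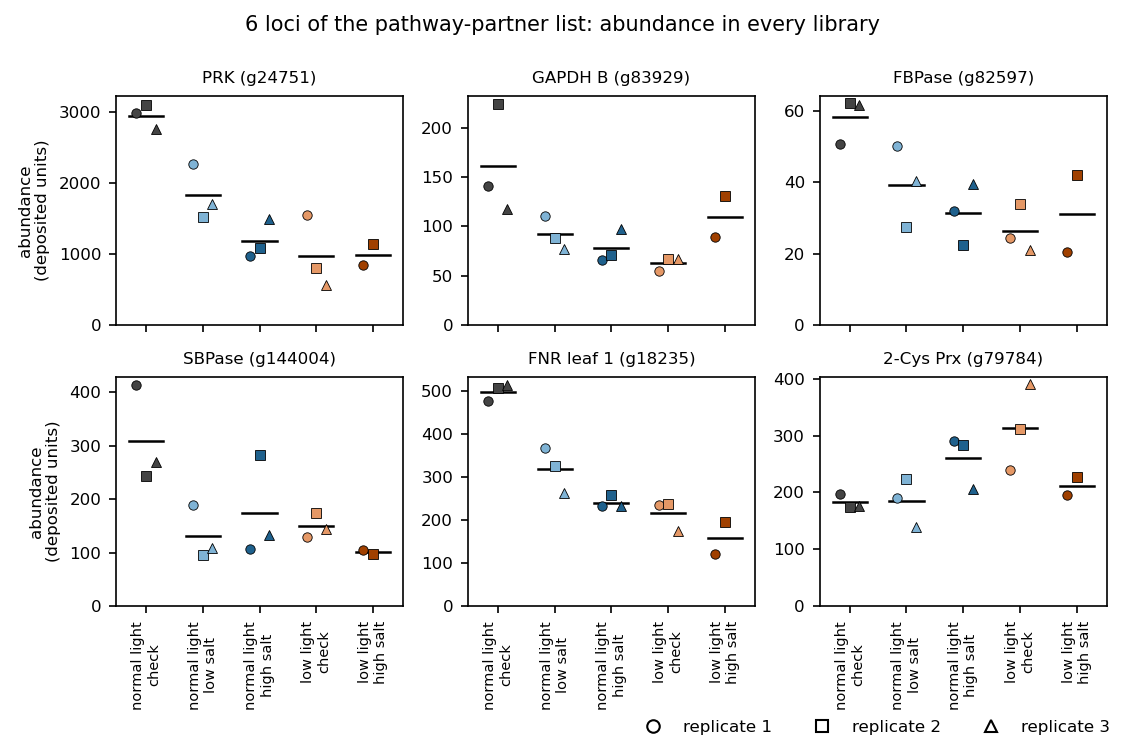
Abundance (deposited units, linear axis from 0) of phosphoribulokinase (PRK), glyceraldehyde-3-phosphate dehydrogenase B, fructose-1,6-bisphosphatase, sedoheptulose-1,7-bisphosphatase, leaf ferredoxin-NADP reductase (FNR) and 2-Cys peroxiredoxin (Prx) in each library; symbols are replicates 1 to 3 and the bar is the group mean. The first 5 were highest in the normal-light check on average, and the peroxiredoxin was not.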

How the data were processed

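The authors deposited 1 table with an abundance signal per assembled transcript and library and with database annotation. The unit is not named: the deposited signal values are not whole and never negative, and whole reads could not be recovered. Tools listed in the submitters' processing notes are Bowtie 0.12.2, HISAT2 2.0 and StringTie 1.3.0, with the mouse build mm8, with no role stated for any of them. The labels' protocols mention rice leaves at the extraction step. Of 65536 lines 4 were broken, and 3 loci at the edges of the table were left out, which left 65514 transcripts in 29560 loci. The table ends at the row limit of its format, so other genes were not analysed here.

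Only loci that reached a value of 1 in 2 or more libraries entered the test, limma 3.58.1 (R 4.3.3), run on log2(value + 1) in 1 fit of 5 group means over 14 libraries with a trended, robust variance, without a replicate block. Count tests were not used because the values are not counts. The script was tested on simulated data. Tables and plots were made with Python 3.11.15, pandas 2.3.3 and matplotlib 3.10.9. The members, lists and rules were chosen with earlier results of these data known. The fixed compartment rule counts NTRC as cytosolic, since its name gives none; it was moved to the plastid after the names were seen, and both versions are given. Loci are named in the text if they were called, had 1 of the 2 highest means of their class, or had the largest change of a comparison with a mean of at least 5. Others named were chosen after their values were seen. No sequences are printed, since none were given.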

Additional observations from a re-analysis of the deposited data

How the results depend on the processing

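The direction held under all alternatives tried for every called redoxin or partner change and every redoxin change named by the stated rule, except that of g930 with low salt, which turned to 0.39 with named transcripts only, an alternative chosen after seeing the data. The number of redoxin loci called with high salt at normal light, 4 as reported, was 1 after median-of-ratios scaling, 11 with library totals, 2 with no filter on low values, 8 with a filter of at least 5, 2 with named transcripts only and 0 with only the groups compared. At low light it was 14 with library totals in place of 9, and in the combined comparison 10 with only the groups compared in place of 4. The cause was not tested. Leaving out 1 library at a time gave 0 to 10 calls for high salt at normal light: 0 without check replicate 1 or 3 or high-salt replicate 1 or 2, 1 without check replicate 2, 2 without any low-salt library, 10 without low-light check replicate 1 and 9 without replicate 2. The calls over all tested loci moved the same way: from 811 to 1279 with library totals, 130 with only the groups compared, 24 and 16 without check replicates 1 and 3 and 1107 without low-light check replicate 1. Leaving out 1 library gave 4 (without check replicate 1) to 11 at low light and 0 to 5 for the combined comparison, with 0 and 1 without low-light high-salt replicates 1 and 2 and 2 without check replicate 3. Over all tested loci these last 3 counts were 13, 318 and 716, in place of 1927. Leaving out a low-light high-salt library leaves 1 in that group, which is then assumed to vary like the other groups. The ranges were 0 to 1 for low salt and for high salt at low light, 0 to 0 for the interaction, and 0 to 2 for low light among high-salt plants and for high against low salt. Taken over all tested loci, same-numbered libraries did not deviate together (1 of 26 correlations above 0.1), and the main fit used no replicate block. Such correlations cannot show a pairing that touches few loci, and 3 thioredoxin H2-2 loci were above 0 only in the libraries numbered 2. With a replicate block 1 redoxin locus was called for high salt at normal light, 9 for low light, 3 for the combined comparison and 0 in the others. Over all tested loci the block gave 408 calls for high salt at normal light in place of 811, and 2478 for low light in place of 3074. Depth is unknown, so the precision of scarce loci cannot be stated.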

Other observations

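Of 29560 loci, 4 were above 0 in all 5 libraries numbered 2 and listed at 0 in all 9 others, and 3 of the 4 were thioredoxin H2-2 loci (g83858, g88949 and g99372). No locus showed this pattern for replicate 1, and 1 locus did for replicate 3. The labels do not say what a replicate number stands for.

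Members differed widely in how much replicates of a group varied. The pooled within-group SD on the log2(value + 1) scale was lowest for thioredoxin-like 3-3 (g17054) at 0.20 and highest for glutaredoxin-C14 (g86626) at 1.77. The median was 0.43 over the tested redoxin loci and 0.46 over all tested loci. Thioredoxin-1 (g82531) stood at 43.6 units in high-salt replicate 1 and did not exceed 1.82 in any other library.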
